A study of Mus musculus with 12 samples.

Results

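Antioxidant, glutathione and NRF2 genes were followed in remnant lens cells (LCs) after cataract surgery. The group holds 40 genes chosen by symbol: the transcription factor gene Nfe2l2, its inhibitor Keap1, and genes for glutathione synthesis, glutathione peroxidases and S-transferases, the thioredoxin system, peroxiredoxins, superoxide dismutases and catalase, metallothioneins, ferritin and 2 aldehyde dehydrogenases. Every symbol was found, giving 40 of 45859 genes. RNA came from lens capsules with their attached LCs, taken from adult mice 2 months of age whose lens fiber cells had been removed surgically, at 0 h or 24 h post cataract surgery (PCS). WT mice were C57BL/6. In β8ITG-cKO mice, on a mixed C57BL/6 and 129S1/Sv background, a floxed Itgb8 gene was deleted by MLR10-Cre, which is active in lens cells from the lens vesicle stage onward, so non-lens cells on the capsule keep the gene. Both genotypes underwent surgery, and no unoperated eye was part of the comparison. Each of the 4 conditions had 3 libraries, made from pooled capsules. Genotype and strain background cannot be told apart in this design.

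NRF2, the protein of Nfe2l2, is held in the cytoplasm and sent for degradation by KEAP1. Oxidants and electrophiles modify KEAP1, and NRF2 then accumulates, pairs with a small MAF protein and binds antioxidant response elements near genes for glutathione synthesis, thioredoxin recycling and detoxification. The lens is known for very high glutathione, which keeps crystallins reduced and the tissue clear, and its epithelium carries much of the synthesis and recycling of glutathione. Metallothionein genes are switched on mainly by zinc through metal response elements, and also by oxidants and glucocorticoids.

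The values were FPKM (mapped fragments scaled by transcript length and by library size), deposited for each library. Summed FPKM ran from 446531 to 740140 per library, and the 10 highest genes took 36.0% to 49.6% of the sum. Read totals were not used here, so the depth behind a value is unknown, although steps between low FPKM gave relative depths of 0.874 to 1.096. The number of libraries limits the precision. Each change is given on the log2(FPKM + 1) scale with its standard error (SE), which understates the change of genes with low FPKM, and each fold is a ratio of mean FPKM. Genes with an adjusted p of 0.05 or less are named as called (limma-trend with Benjamini-Hochberg adjustment over all genes tested). The words rose and fell are kept for called genes. Size criteria, where named, require group means over 2-fold and over 2 FPKM apart and at least 2 FPKM in 1 group. The study's methods call the libraries of a condition biological replicates, each from pooled capsules, and p-values measure the spread between these libraries. In bulk tissue, fewer cells of a type and less RNA per cell cannot be told apart.

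The tissue was checked first. Lens epithelium markers were present in every library, with the transcription factor gene Foxe3 at 25.5 to 172 FPKM and Pax6 at 59.9 to 93.5 FPKM. The α-crystallin gene Cryab was the most abundant of the 7 markers, with a mean of 8300 FPKM. Itgb8 did not separate the genotypes. It was at 7.26, 10.8 and 8.42 FPKM in WT 0 h, 9.08, 8.38 and 9.58 FPKM in WT 24 h, 6.83, 4.58 and 7.31 FPKM in β8ITG-cKO 0 h, and 9.28, 11.8 and 10.3 FPKM in β8ITG-cKO 24 h. FPKM per gene count all exons, so a deletion of part of the gene need not show, and the direction of each genotype difference rests on the labels.

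RNA of other cell types varied between libraries. Summed FPKM of 12 photoreceptor markers was 960 to 1130 in the β8ITG-cKO 24 h libraries and 85.6 to 157 in WT 24 h. At 0 h it was 207 to 374 in β8ITG-cKO and 159 to 1300 in WT, where replicate 2 stood far above the other 2. All 12 photoreceptor markers were called higher in β8ITG-cKO than in WT at 24 h. Red blood cell markers, led by Hba-a1, summed to 6.52 to 15.8 FPKM in β8ITG-cKO 0 h and to 36.0 to 220 FPKM in the other libraries. Neutrophil markers, led by S100a9, summed to 0.459 to 1.41 FPKM at 0 h, to 45.5 to 64.4 FPKM in WT 24 h and to at most 34.7 FPKM in β8ITG-cKO 24 h, with Ly6g, Mpo and Elane at 0 in every library. Macrophage markers, led by Lyz2, summed to 9.3 to 18.2 FPKM at 0 h and 24.0 to 45.5 FPKM at 24 h. Of the 7 tested, 2 rose in WT and 4 in β8ITG-cKO, and none fell. The median log2 change of this list was -0.12 in WT and 0.94 in β8ITG-cKO, beside 0.16 and 0.23 for all genes. Corneal epithelium markers, led by Krt15, summed to 56.2 FPKM in WT 24 h replicate 3 and to at most 12.2 FPKM elsewhere. In that library Krt15 was at 46.4 FPKM, Krt5 at 6.88 FPKM and Krt14 at 2.12 FPKM. Krt12, a keratin of the same list, was at 0 there and highest in WT 24 h replicate 1, at 4.62 FPKM. Lens markers themselves moved with time. All 8 markers of lens fiber cells, led by Mip, fell in both genotypes, from sums of 1540 to 2070 FPKM at 0 h to 128 to 250 FPKM at 24 h. Of the 7 lens epithelium markers, 4 fell and 1 rose in WT and 5 fell in β8ITG-cKO. Their sums, mostly Cryab, were 10200 to 14900 FPKM at 0 h and 3170 to 5480 FPKM at 24 h. Between genotypes at 0 h, 2 of the 7, Foxe3 and Cdh1, were called higher in β8ITG-cKO. Of the other lists, Müller glia, led by Glul, summed to 77.2 to 310 FPKM, corneal stroma, led by Col1a1, to 0.869 to 1.19 FPKM in β8ITG-cKO 0 h and 3.04 to 8.9 FPKM in the other libraries, and iris and ciliary pigment cells, led by Dct, to 13.4 to 17.4 FPKM in β8ITG-cKO 0 h, 21.3 to 86.5 FPKM in WT 0 h and 12.7 to 33.3 FPKM at 24 h. How far these cells contributed to the antioxidant genes was not tested.

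**Figure D1:**
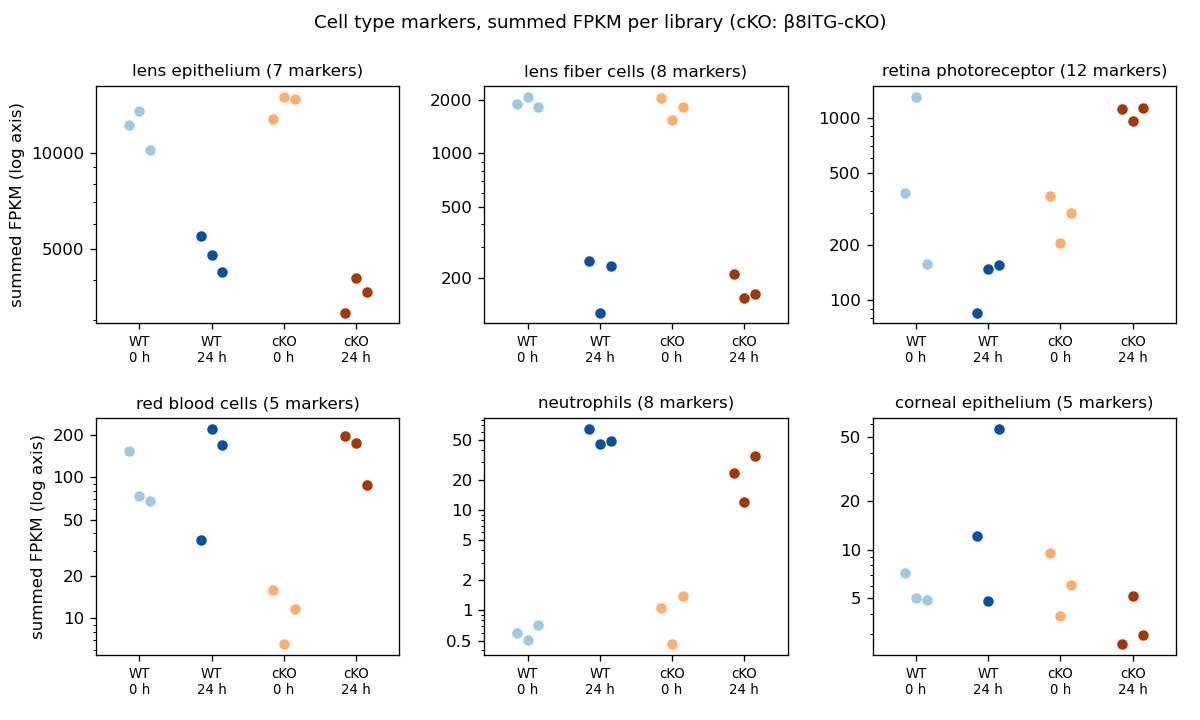
Summed FPKM of 6 marker lists (log axis) in each library of the 4 conditions, 1 point per library. Photoreceptor RNA is at 960 to 1130 FPKM in β8ITG-cKO 24 h against 85.6 to 157 in WT 24 h. WT 24 h replicate 3 stands out for the corneal epithelium list at 56.2 FPKM, mostly Krt15, with Krt12 at 0.

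At 0 h PCS in WT LCs the antioxidant genes spanned 1.6 FPKM (Glrx) to 416 FPKM (Gstm1), with a median member at 21.5 FPKM. The detoxifying enzymes Gstm1, Aldh1a1 and Aldh3a1 and the ferritin heavy chain gene Fth1, at 416, 329, 240 and 375 FPKM, formed the top of the order. Peroxiredoxin, glutathione peroxidase and superoxide dismutase genes followed at 134 FPKM (Prdx5), 126 FPKM (Gpx4) and 117 FPKM (Sod1), means whose libraries overlapped. Nfe2l2 and Keap1 were near the bottom at 6.29 and 5.2 FPKM. The 40 genes summed to 2550 ± 222 FPKM in WT 0 h, 3143 ± 337 FPKM in WT 24 h, 3102 ± 250 FPKM in β8ITG-cKO 0 h and 2450 ± 358 FPKM in β8ITG-cKO 24 h (SD, n = 3 each), sums carried by the few most abundant genes. All 40 passed the filter on low values in every comparison.

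By 24 h PCS in WT LCs, 19 of the 40 genes rose and 4 fell. Among all 15146 genes tested, 20.9% were called higher and 8.81% lower. The median change was 0.53 on the log2 scale, beside 0.16 for all genes tested. Of the genes called, 13 higher and 3 lower also met the size criteria, met by 10.3% and 3.92% of all genes. In β8ITG-cKO LCs 15 of the 40 rose and 10 fell by 24 h, where 35.4% and 10.7% of 15237 tested genes were called higher and lower, so the share that rose was near the background and the share that fell was above it. The median change there was 0.10, beside 0.23 for all genes. The size criteria were met by 9 of the genes that rose and 6 of those that fell (11.3% and 3.77% of all genes).

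The median of all genes shifted by 0.21 in WT and by 0.23 in β8ITG-cKO when each library was rescaled to the same median, and the split of calls shifted with it. After rescaling, 14 genes were called higher and 9 lower in WT (14.4% and 16.0% of all genes), and 9 higher and 15 lower in β8ITG-cKO (21.3% and 19.9%). WT lost the calls of Gclm, Mt1, Slc7a11, Sod3 and Txnrd1 and gained Gpx3, Msra, Prdx5, Prdx6 and Sod1 as lower. β8ITG-cKO lost Fth1, G6pdx, Gsta4, Mt1, Prdx3 and Txn1 and gained Gpx4, Gpx8, Keap1, Prdx2 and Sod1 as lower. Without WT 0 h replicate 2, the library with the most photoreceptor RNA, 16 genes were called higher and 4 lower in WT, and without WT 24 h replicate 3, 19 and 5.

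Called higher in both genotypes were 14 genes: Nfe2l2, Hmox1, Srxn1, Gsr, G6pdx, Gsta4, Glrx, Txn1, Txnrd1, Prdx3, Sod3, Mt1, Mt2 and Fth1. Called lower in both were Aldh1a1, Gclc, Gss and Gstm1. Slc7a11 was called higher in WT and lower in β8ITG-cKO. The other WT calls were Gclm, Gpx1, Gpx8 and Prdx1, all higher, and the other β8ITG-cKO calls were Txnip, higher, and Aldh3a1, Msra, Nqo1, Prdx5 and Prdx6, lower. Cat, Gpx3, Gpx4, Gsto1, Gstp1, Keap1, Prdx2, Prdx4, Sod1, Sod2 and Txn2, 11 genes, were called in neither. Whether a change differed between genotypes was tested separately, as an interaction of genotype and time, and 5 of the 40 genes passed that test (Mt2, Aldh3a1, Slc7a11, Gpx8 and Prdx1). Of the other genes called in 1 genotype alone, the interaction was -0.78 for Gpx1 (adjusted p = 0.0848), -1.09 for Nqo1 (0.0729), -0.35 for Gclm (0.278), 0.63 for Txnip (0.497), 0.13 for Msra (0.865), -0.32 for Prdx5 (0.282) and -0.11 for Prdx6 (0.823), so their changes were not shown to differ between genotypes.

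**Figure D2:**
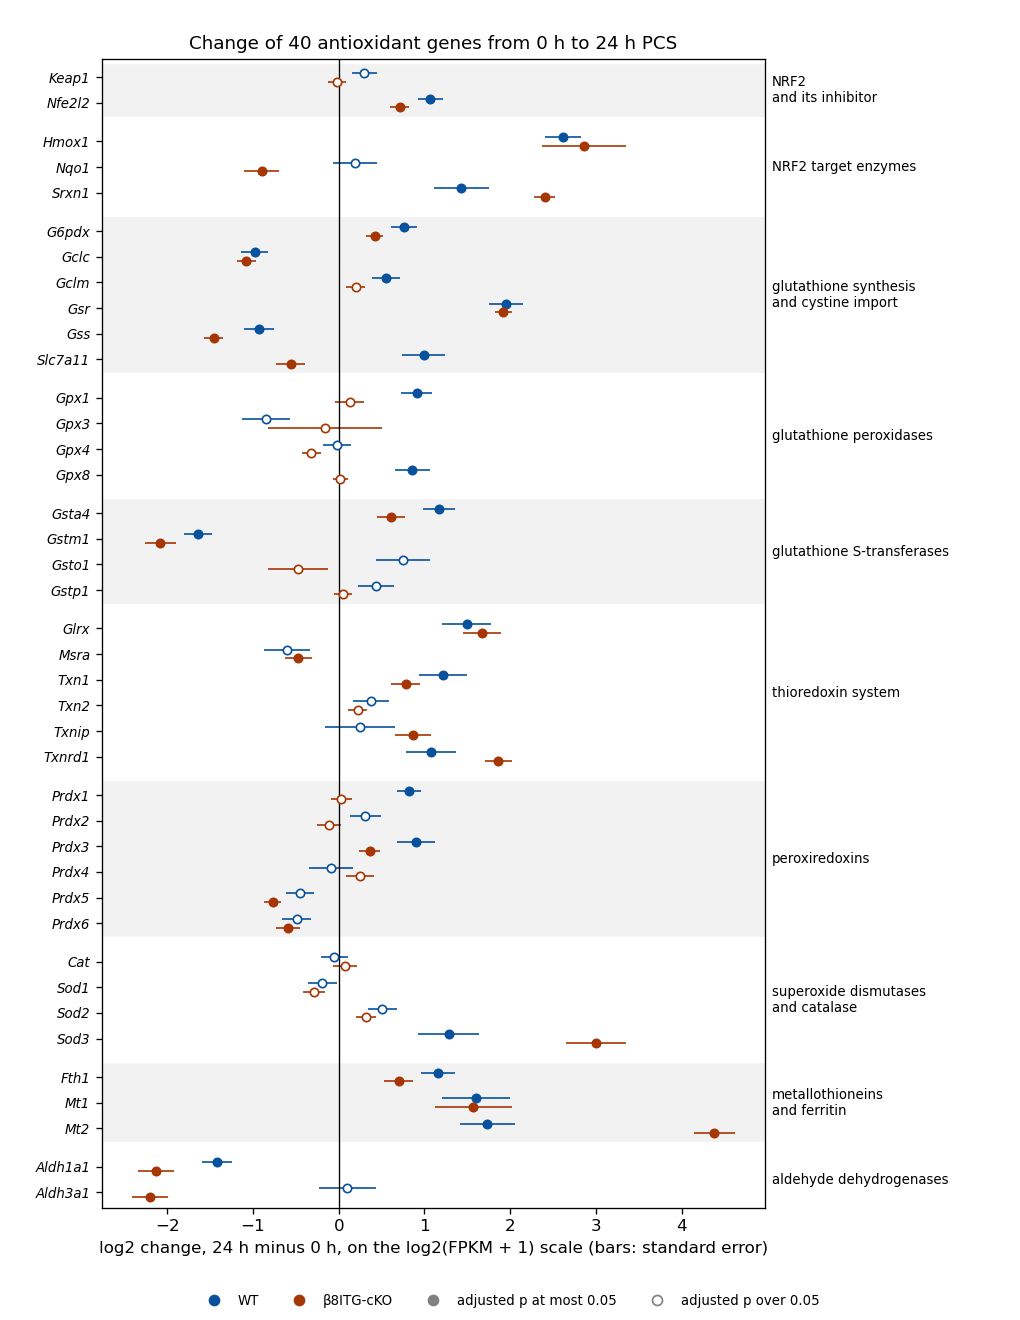
Log2 change from 0 h to 24 h PCS of the 40 genes by role in WT (blue) and β8ITG-cKO (orange), with bars for the standard error and filled points for an adjusted p of at most 0.05. Hmox1, Gsr and Srxn1 lie to the right in both genotypes, Gstm1 and Aldh1a1 to the left, and Mt2 has the largest gap between genotypes among the called interactions.

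Between the genotypes, 9 of the 40 genes were called at 0 h PCS, 5 higher and 4 lower in β8ITG-cKO, where 4.18% and 2.75% of 14708 genes were called higher and lower. The median difference was 0.06, beside 0.02 for all genes. The size criteria were met by 2 of the higher genes, Aldh3a1 and Slc7a11, and by all 4 lower genes, Mt2, Srxn1, Txnrd1 and Sod3 (1.35% and 1.18% of all genes). The count at 0 h fell to 4 without WT 0 h replicate 1 or β8ITG-cKO 0 h replicate 2, and to 2 without β8ITG-cKO 0 h replicate 3. Calls among all genes fell with it, from 615 higher and 405 lower to 159 and 110, to 177 and 94 and to 80 and 56 in these fits. At 24 h, limma called none of the 40 genes between genotypes (5.64% of 15366 genes higher and 0.644% lower). The unadjusted p was under 0.05 for 13 of the 40, and for 3137 of all 15366 genes. The 13 became 3 without β8ITG-cKO 24 h replicate 1 (2439 of all 15299 genes) and 14 without WT 24 h replicate 3 (3935 of all 15396 genes). In the other fits that left out 1 library it was 8 or 9. The median difference was -0.30, beside 0.03 for all genes. In 1 fit over all 12 libraries, which estimates the spread from every condition, 4 genes were called lower in β8ITG-cKO at 24 h: Prdx1 (adjusted p = 0.018), Mt2 (0.0449), Gstm1 (0.0485) and Gsr (0.0488). That fit called 1224 of all 15262 genes higher and 314 lower. The interaction called 5 genes, Mt2 with a larger rise in β8ITG-cKO and Aldh3a1, Slc7a11, Gpx8 and Prdx1 with a lower log2 change in β8ITG-cKO, against 6.83% and 2.56% of 15262 genes in these directions. Without β8ITG-cKO 0 h replicate 2 it called 3, where calls among all genes fell from 1043 higher and 390 lower to 516 and 172. After rescaling it called 7, the same 5 and Gpx1 and Gss (1097 higher and 649 lower of all 15251 genes). The time and genotype comparisons share libraries in pairs, so that low β8ITG-cKO values at 0 h enter both the 0 h difference and the change over time.

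**Figure D3:**
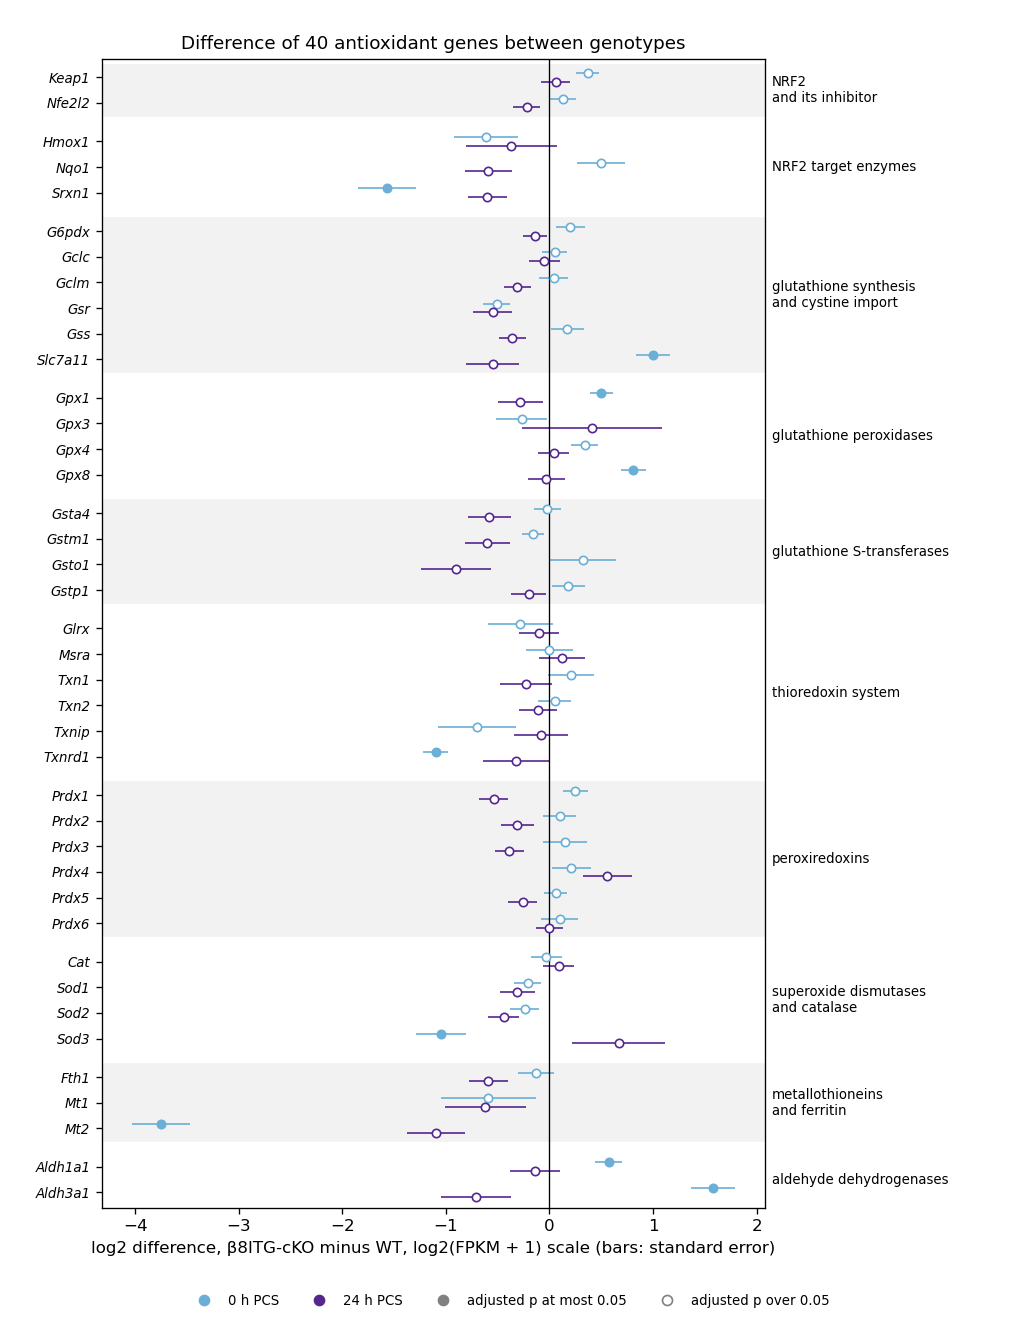
Log2 difference between β8ITG-cKO and WT LCs of the 40 genes at 0 h (light blue) and 24 h (purple) PCS, with bars for the standard error and filled points for an adjusted p of at most 0.05. Mt2 at 0 h stands at -3.75, the other calls at 0 h lie between -1.57 and 1.58, and no point at 24 h is filled.

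Nfe2l2 rose in both genotypes, while Keap1 was called in neither. The Nfe2l2 gene spans 75675513 to 75704641 on chromosome 2 (GRCm38). Its level was 6.37, 5.36 and 7.13 FPKM in WT 0 h and 15.1, 14.4 and 13.1 FPKM in WT 24 h. In β8ITG-cKO it was at 6.33, 7.08 and 7.48 FPKM at 0 h and 12.2, 10.9 and 13.0 FPKM at 24 h. Within each genotype the times did not overlap, with 24 h the higher, and the genotypes overlapped at 0 h, while at 24 h every β8ITG-cKO library was below every WT library. The log2 change was 1.07 (SE 0.15, adjusted p = 0.00241) in WT and 0.71 (SE 0.11, adjusted p = 0.00137) in β8ITG-cKO by limma, 2.26-fold and 1.73-fold. The difference of -0.22 at 24 h was not called (adjusted p = 0.384, 95% interval -0.52 to 0.08). Keap1, whose product marks NRF2 for degradation, was at 4.8, 5.6 and 5.22 FPKM in WT 0 h, 5.74, 7.52 and 6.65 FPKM in WT 24 h, 6.76, 7.26 and 7.02 FPKM in β8ITG-cKO 0 h and 6.67, 6.59 and 7.53 FPKM in β8ITG-cKO 24 h. The WT 0 h libraries were the lowest, and the other conditions overlapped. Its log2 change was 0.30 in WT (adjusted p = 0.176) and -0.02 in β8ITG-cKO (adjusted p = 0.908).

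Of the NRF2 target enzymes, Hmox1 and Srxn1 rose in both genotypes. Hmox1 encodes heme oxygenase, which breaks heme down to biliverdin, iron and carbon monoxide. It was at 10.1, 7.97 and 7.4 FPKM in WT 0 h and 51.2, 76.0 and 47.7 FPKM in WT 24 h, and at 8.88, 2.79 and 5.25 FPKM in β8ITG-cKO 0 h and 60.7, 68.2 and 20.2 FPKM in β8ITG-cKO 24 h. The times did not overlap in either genotype, with β8ITG-cKO 24 h replicate 3 well below the other 24 h libraries. The rise was 6.87-fold in WT (log2 change 2.62, SE 0.21, adjusted p = 0.000283) and 8.81-fold in β8ITG-cKO (log2 change 2.86, SE 0.49, adjusted p = 0.00251). The genotypes were not called apart at either time, with 95% intervals of -1.34 to 0.11 at 0 h and -1.40 to 0.66 at 24 h.

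Srxn1, sulfiredoxin, repairs overoxidized peroxiredoxins. It was at 14.0, 8.4 and 21.8 FPKM in WT 0 h, 32.7, 51.0 and 34.4 FPKM in WT 24 h, 3.9, 3.58 and 4.41 FPKM in β8ITG-cKO 0 h, and 24.9, 28.1 and 22.6 FPKM in β8ITG-cKO 24 h. The 3 β8ITG-cKO 0 h libraries were the lowest of all and lay close together, and the genotypes did not overlap at either time. The rise was 2.68-fold in WT (log2 change 1.43, SE 0.32, adjusted p = 0.0146) and 6.35-fold in β8ITG-cKO (log2 change 2.40, SE 0.12, adjusted p = 1e-05). At 0 h Srxn1 was 3.71-fold lower in β8ITG-cKO (log2 difference -1.57, SE 0.28, adjusted p = 0.0228), and the interaction of 0.97 was not called (adjusted p = 0.134). The 0 h call was lost without WT 0 h replicate 1 or any 1 of the β8ITG-cKO 0 h libraries (adjusted p up to 0.0825), and the WT rise without WT 24 h replicate 2 (adjusted p = 0.0541). Nqo1, a quinone reductase, was low, at 1.82 to 6.4 FPKM. It fell 2.19-fold in β8ITG-cKO, from 6.4, 5.36 and 4.45 FPKM to 2.11, 3.47 and 1.82 FPKM (log2 change -0.90, SE 0.20, adjusted p = 0.00756), and had overlapping values in WT of 3.5, 5.06 and 2.31 FPKM at 0 h and 3.16, 4.12 and 5.28 FPKM at 24 h.

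Glutathione synthesis and its supply did not move as a block. All 6 genes were called in WT, 4 higher and 2 lower, and 5 in β8ITG-cKO, 2 higher and 3 lower. Gsr, glutathione reductase, which returns oxidized glutathione to the reduced form with NADPH, was at 5.04, 6.26 and 5.13 FPKM in WT 0 h, 27.4, 27.9 and 18.0 FPKM in WT 24 h, 3.81, 3.46 and 3.34 FPKM in β8ITG-cKO 0 h and 14.7, 16.5 and 17.2 FPKM in β8ITG-cKO 24 h. Every β8ITG-cKO library was below every WT library of the same time. The rise was 4.46-fold in WT (log2 change 1.95, SE 0.20, adjusted p = 0.000715) and 4.56-fold in β8ITG-cKO (log2 change 1.92, SE 0.10, adjusted p = 1.6e-05), with an interaction of -0.04 (95% interval -0.53 to 0.45). The genotype differences were -0.51 at 0 h (adjusted p = 0.0525) and -0.55 at 24 h (adjusted p = 0.149). The first was called at a pseudocount of 0.1 (adjusted p = 0.0491) and after rescaling (adjusted p = 0.0288), and the second without WT 24 h replicate 3 (adjusted p = 0.0198). G6pdx, whose enzyme makes NADPH in the pentose phosphate pathway, rose 1.75-fold in WT and 1.37-fold in β8ITG-cKO, where the call was lost without β8ITG-cKO 24 h replicate 2 (adjusted p = 0.0519).

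The synthetic enzymes moved apart. Gclc, the catalytic subunit of glutamate-cysteine ligase and the rate-limiting step of glutathione synthesis, was at 13.4, 13.9 and 11.9 FPKM in WT 0 h and 7.37, 5.07 and 6.04 FPKM in WT 24 h. In β8ITG-cKO it was at 12.8, 15.7 and 12.3 FPKM at 0 h and 5.95, 5.83 and 5.75 FPKM at 24 h, with no overlap between times. It fell 2.12-fold in WT (log2 change -0.98, SE 0.16, adjusted p = 0.0045) and 2.32-fold in β8ITG-cKO (log2 change -1.08, SE 0.11, adjusted p = 0.00024), with an interaction of -0.10 (95% interval -0.52 to 0.32). Gclm, the modifier subunit of the same ligase, rose 1.5-fold in WT (log2 change 0.55, SE 0.16, adjusted p = 0.033), a call lost after rescaling (adjusted p = 0.0741) and without WT 0 h replicate 1 or 3 or WT 24 h replicate 1 or 2 (adjusted p up to 0.117). Its change in β8ITG-cKO was 0.20 (adjusted p = 0.181). Gss, glutathione synthetase, the last step, was at 47.5, 60.1 and 41.8 FPKM in WT 0 h and 24.9, 29.1 and 22.6 FPKM in WT 24 h, and at 60.9, 48.2 and 58.0 FPKM in β8ITG-cKO 0 h and 20.3, 19.0 and 19.5 FPKM in β8ITG-cKO 24 h. The 24 h libraries were the lowest in each genotype. Gss fell 1.95-fold in WT (log2 change -0.93, SE 0.18, adjusted p = 0.00762) and 2.84-fold in β8ITG-cKO (log2 change -1.46, SE 0.11, adjusted p = 5.5e-05), and the interaction of -0.53 was not called (adjusted p = 0.14), but was after rescaling (adjusted p = 0.0342).

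Slc7a11, the cystine and glutamate exchanger that brings in cystine, a source of cysteine for glutathione, changed in opposite directions. It was at 19.4, 14.7 and 15.8 FPKM in WT 0 h, 30.3, 25.2 and 50.1 FPKM in WT 24 h, 27.8, 41.0 and 34.1 FPKM in β8ITG-cKO 0 h and 23.2, 19.0 and 26.7 FPKM in β8ITG-cKO 24 h. The WT 0 h libraries were the low group, slightly overlapped by β8ITG-cKO 24 h, and WT 24 h replicate 3 was the highest. The log2 change was 0.99 in WT (SE 0.25, adjusted p = 0.0225) and -0.56 in β8ITG-cKO (SE 0.17, adjusted p = 0.0291), and the interaction was -1.54 (SE 0.33, adjusted p = 0.0155). At 0 h Slc7a11 was 2.06-fold higher in β8ITG-cKO (log2 difference 1.0, SE 0.16, adjusted p = 0.0174), and at 24 h the difference was -0.55 (adjusted p = 0.289). The interaction was called in every fit that left out 1 library (adjusted p at most 0.046). The WT rise was lost without WT 0 h replicate 2 or 3 (adjusted p up to 0.071) and after rescaling (adjusted p = 0.0969), and the fall in β8ITG-cKO without β8ITG-cKO 0 h replicate 2 or 3 or 24 h replicate 1 or 2 (adjusted p up to 0.0924). The 0 h difference was lost without β8ITG-cKO 0 h replicate 2 or 3 (adjusted p up to 0.0811).

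**Figure D4:**
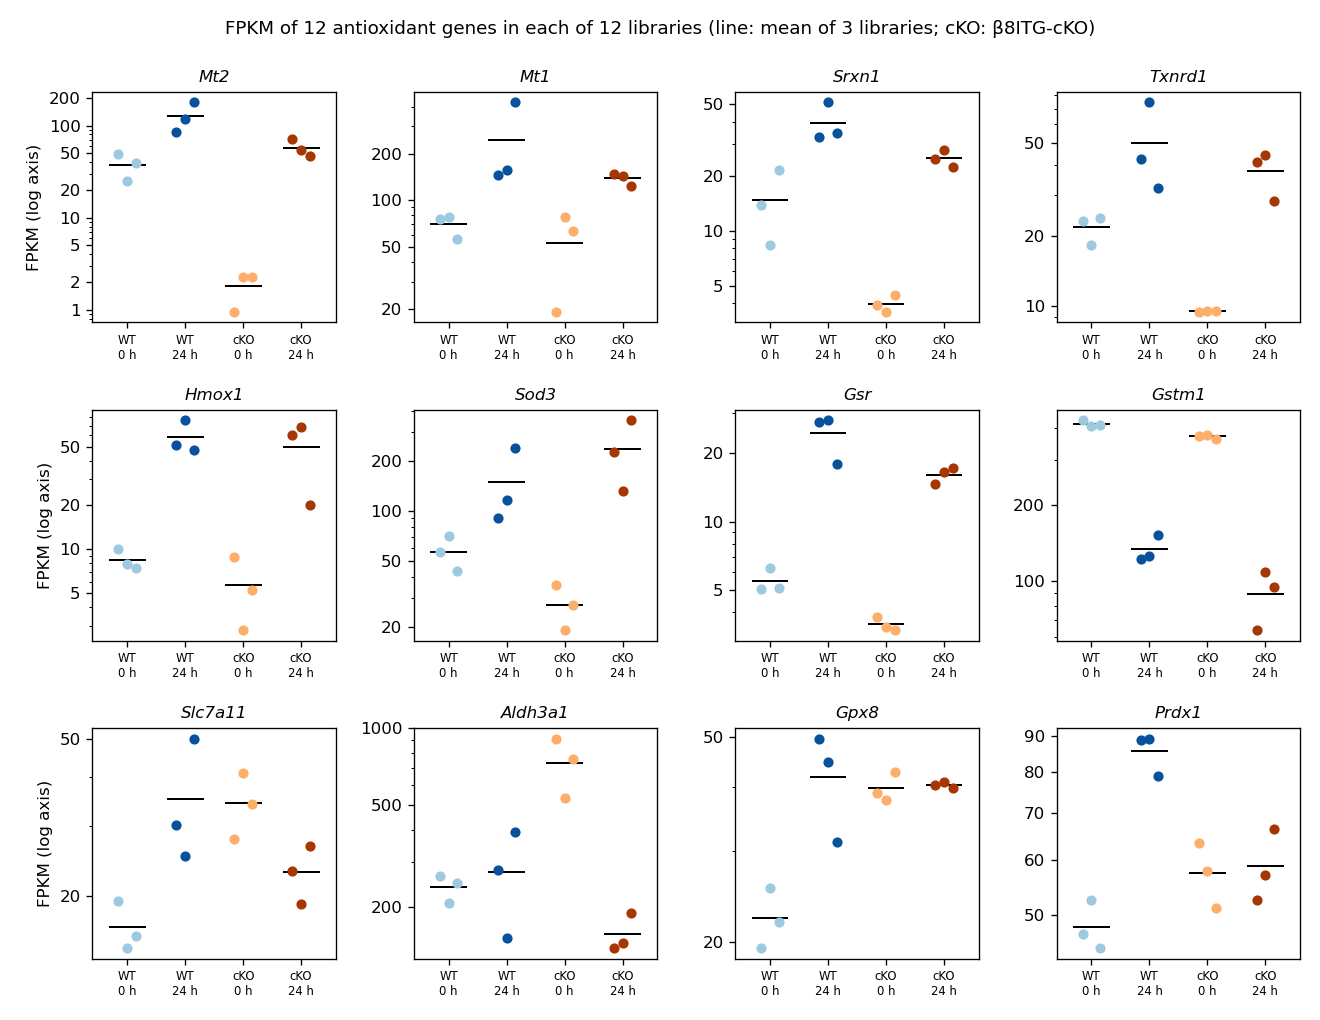
FPKM (log axis) of 12 antioxidant genes in each library, 3 points per condition with a line at their mean. Mt2, Srxn1 and Txnrd1 are lowest in β8ITG-cKO 0 h, Gstm1 is high in every 0 h library, and Slc7a11, Aldh3a1, Gpx8 and Prdx1 differ between WT and β8ITG-cKO in their course.

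Of the 4 glutathione peroxidases, which use glutathione to reduce peroxides, Gpx1 and Gpx8 rose in WT, and none was called in β8ITG-cKO. The interaction was called for Gpx8 alone, with adjusted p-values of 0.0848 for Gpx1, 0.654 for Gpx3 and 0.385 for Gpx4, and after rescaling for Gpx1 too (adjusted p = 0.0259). Gpx8, a peroxidase of the endoplasmic reticulum, was at 19.5, 25.5 and 21.9 FPKM in WT 0 h and 49.5, 44.7 and 31.3 FPKM in WT 24 h, and at 38.9, 37.7 and 42.8 FPKM in β8ITG-cKO 0 h and 40.3, 40.9 and 39.8 FPKM in β8ITG-cKO 24 h. The β8ITG-cKO libraries kept within a narrow range at both times, at levels inside the WT 24 h range. The log2 change was 0.86 in WT (SE 0.20, adjusted p = 0.0159) and 0.02 in β8ITG-cKO (95% interval -0.18 to 0.22), the interaction was -0.84 (SE 0.22, adjusted p = 0.0366), and the 0 h difference was 0.81 (SE 0.12, adjusted p = 0.0134). The interaction was called in 2 of the 12 fits that left out 1 library, those without WT 0 h replicate 2 or WT 24 h replicate 3 (adjusted p up to 0.0921 in the others). The WT rise was lost without WT 0 h replicate 1 or WT 24 h replicate 2 (adjusted p up to 0.0688), and the 0 h difference without WT 0 h replicate 1 or β8ITG-cKO 0 h replicate 3 (adjusted p up to 0.0788).

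Gpx1, the cytosolic peroxidase, had means of 31.3 ± 2.52 FPKM in WT 0 h, 60.7 ± 13.6 in WT 24 h, 44.7 ± 4.03 in β8ITG-cKO 0 h and 49.9 ± 10.8 in β8ITG-cKO 24 h (SD, n = 3 each). It rose in WT (log2 change 0.91, adjusted p = 0.0094), and at 0 h it was 1.43-fold higher in β8ITG-cKO (log2 difference 0.50, adjusted p = 0.0385), a call lost in each fit that left out 1 library (adjusted p up to 0.171). Gpx4, which protects membranes from lipid peroxides, was at 112 to 177 FPKM in the 12 libraries. Its change in β8ITG-cKO was -0.32 with no overlap between times, just short of the threshold (adjusted p = 0.0504), and it was called at a pseudocount of 0.1 (adjusted p = 0.0495) and after rescaling (adjusted p = 0.00199). Gpx3, a secreted peroxidase, was at 38.2 to 141 FPKM in 11 libraries and at 284 FPKM in β8ITG-cKO 24 h replicate 3. That library decides its mean in β8ITG-cKO: the ratio of means was 1.34, while the log2 change was -0.16 (adjusted p = 0.859), and without it the change was -1.06 and called (adjusted p = 0.00339). Without β8ITG-cKO 24 h replicate 2 the change turned to 0.37 (adjusted p = 0.674).

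Among the 4 glutathione S-transferases, which couple glutathione to electrophiles, Gstm1 fell and Gsta4 rose in both genotypes. Gstm1 spans 108012255 to 108017973 on chromosome 3. Its level was 429, 407 and 411 FPKM in WT 0 h, 122, 126 and 152 FPKM in WT 24 h, 374, 376 and 364 FPKM in β8ITG-cKO 0 h and 64.2, 109 and 95.2 FPKM in β8ITG-cKO 24 h. The 0 h libraries, at 364 to 429 FPKM, stood well above the 24 h libraries, at 64.2 to 152 FPKM. Lens fiber and lens epithelium marker sums were also lower at 24 h. The lens epithelium sum was mostly Cryab, whose mean in WT was 11610 FPKM at 0 h and 4554 FPKM at 24 h. Its other markers were not uniform in WT: Foxe3 went from 74.4 to 36.3 FPKM, Pax6 from 90.5 to 78.7 FPKM and Cdh1 from 59.1 to 80.9 FPKM. The part of these cells in the fall of Gstm1 was not tested. The fall was 3.12-fold in WT (log2 change -1.64, SE 0.16, adjusted p = 0.000633) and 4.16-fold in β8ITG-cKO (log2 change -2.08, SE 0.18, adjusted p = 0.000117), with an interaction of -0.44 (adjusted p = 0.308). Gsta4, which conjugates the lipid peroxidation product 4-hydroxynonenal, was at 42.4, 51.3 and 46.1 FPKM in WT 0 h and 90.4, 138 and 94.0 FPKM in WT 24 h, and at 50.5, 39.6 and 48.2 FPKM in β8ITG-cKO 0 h and 75.4, 81.4 and 57.1 FPKM in β8ITG-cKO 24 h. The times did not overlap in either genotype, and the rise was 2.31-fold in WT (log2 change 1.17, SE 0.19, adjusted p = 0.00458) and 1.55-fold in β8ITG-cKO (log2 change 0.61, SE 0.16, adjusted p = 0.0145), the latter lost without β8ITG-cKO 24 h replicate 2 (adjusted p = 0.0507). Gstp1 (23.4 to 43.1 FPKM) and Gsto1 (7.91 to 29.8 FPKM) were called in no comparison, and the change of Gsto1 was 0.75 in WT and -0.48 in β8ITG-cKO. The mu-class genes and Gstp1 have near copies in the genome, and the sharing of reads among copies is not known here.

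In the thioredoxin system, which passes electrons from NADPH to oxidized proteins and peroxiredoxins, Glrx, Txn1 and Txnrd1 rose in both genotypes. Txnrd1, thioredoxin reductase, which reduces thioredoxin with NADPH, was at 23.1, 18.3 and 23.8 FPKM in WT 0 h, 42.7, 74.6 and 31.9 FPKM in WT 24 h, 9.44, 9.54 and 9.55 FPKM in β8ITG-cKO 0 h and 41.2, 44.5 and 28.1 FPKM in β8ITG-cKO 24 h. The β8ITG-cKO 0 h libraries were the lowest of the 12, and the genotypes overlapped at 24 h. The rise was 2.29-fold in WT (log2 change 1.08, SE 0.29, adjusted p = 0.0279) and 3.99-fold in β8ITG-cKO (log2 change 1.86, SE 0.16, adjusted p = 0.000114). At 0 h Txnrd1 was 2.28-fold lower in β8ITG-cKO (log2 difference -1.10, SE 0.12, adjusted p = 0.00404), a call that held without any 1 library (adjusted p at most 0.0337). The WT rise was lost without any 1 WT 0 h library or WT 24 h replicate 1 (adjusted p up to 0.0854), and the interaction of 0.78 was not called (adjusted p = 0.216).

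Txn1, cytosolic thioredoxin, was at 16.6, 12.5 and 9.86 FPKM in WT 0 h and 38.9, 37.6 and 20.1 FPKM in WT 24 h, and at 19.8, 11.9 and 13.9 FPKM in β8ITG-cKO 0 h and 28.6, 26.3 and 24.0 FPKM in β8ITG-cKO 24 h. WT 24 h replicate 3 was the lowest 24 h library. Txn1 rose 2.48-fold in WT (log2 change 1.22, SE 0.28, adjusted p = 0.0166), a call lost without WT 0 h replicate 2 or 3 or WT 24 h replicate 2 (adjusted p up to 0.0616), and 1.73-fold in β8ITG-cKO (log2 change 0.78, SE 0.17, adjusted p = 0.00825). Glrx, glutaredoxin, which removes glutathione from protein thiols, was the least abundant member in WT 0 h at 2.17, 1.93 and 0.69 FPKM and reached 4.39, 7.4 and 6.74 FPKM at 24 h, with 1.38, 0.44 and 1.58 FPKM in β8ITG-cKO 0 h and 5.63, 5.54 and 5.56 FPKM in β8ITG-cKO 24 h. Its libraries at 24 h all lay above those at 0 h, 3.86-fold in WT (log2 change 1.49, SE 0.29, adjusted p = 0.00775) and 4.92-fold in β8ITG-cKO (log2 change 1.67, SE 0.22, adjusted p = 0.000653). Txnip, the thioredoxin inhibitor, rose in β8ITG-cKO from 1.98 ± 0.757 FPKM to 4.36 ± 0.661 FPKM with no overlap (SD, n = 3; log2 change 0.87, SE 0.21, adjusted p = 0.0111). In WT it had overlapping values of 2.67, 7.76 and 2.31 FPKM at 0 h and 4.25, 3.11 and 7.23 FPKM at 24 h. Msra, which repairs oxidized methionine, fell 1.45-fold in β8ITG-cKO (adjusted p = 0.046), a call lost in 5 of 6 fits without 1 library (adjusted p up to 0.141). Without β8ITG-cKO 0 h replicate 3 it was kept. Txn2, the mitochondrial thioredoxin, was at 17.4 to 34.0 FPKM and called in no comparison.

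Peroxiredoxins, abundant peroxidases that thioredoxin recycles, changed by less than 2-fold. Prdx1 had a course that differed between genotypes. It was at 47.0, 52.6 and 44.9 FPKM in WT 0 h, 88.9, 89.3 and 78.9 FPKM in WT 24 h, 63.4, 57.8 and 51.1 FPKM in β8ITG-cKO 0 h and 52.6, 57.1 and 66.5 FPKM in β8ITG-cKO 24 h. The WT 24 h libraries stood above all 9 others. The log2 change was 0.82 in WT (SE 0.14, adjusted p = 0.00472) and 0.03 in β8ITG-cKO (95% interval -0.26 to 0.32), with an interaction of -0.79 (SE 0.18, adjusted p = 0.019) that was lost without β8ITG-cKO 0 h replicate 2 (adjusted p = 0.0517). At 24 h Prdx1 was 1.46-fold lower in β8ITG-cKO (log2 difference -0.54, SE 0.14), which was not called in the fit of the pair (adjusted p = 0.0692) and was called after rescaling (adjusted p = 0.0169). Prdx3, the mitochondrial form, rose in WT from 6.56 ± 1.95 to 12.8 ± 1.79 FPKM and in β8ITG-cKO from 7.21 ± 1.03 to 9.49 ± 0.516 FPKM (SD, n = 3 each), a call lost in WT without WT 24 h replicate 1 or 2 (adjusted p up to 0.0703) and in β8ITG-cKO in 5 of 6 fits without 1 library (adjusted p up to 0.133), all but that without β8ITG-cKO 0 h replicate 1. Prdx5 and Prdx6 fell in β8ITG-cKO by 0.77 and 0.59 on the log2 scale (adjusted p = 0.000541 and 0.0108), and their changes in WT were -0.45 and -0.49 (adjusted p = 0.0637 and 0.067). Prdx2 (37.6 to 65.6 FPKM) and Prdx4, which acts in the endoplasmic reticulum (6.42 to 15.9 FPKM), were called in no comparison. Several of these genes have processed pseudogenes that can share reads.

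Of the 3 superoxide dismutases and catalase, Sod3 alone was called. Sod3, the secreted superoxide dismutase, lies on chromosome 5 from 52363791 to 52371418. It was at 56.5, 70.4 and 43.1 FPKM in WT 0 h, 90.4, 117 and 241 FPKM in WT 24 h, 35.5, 19.1 and 27.1 FPKM in β8ITG-cKO 0 h and 226, 131 and 351 FPKM in β8ITG-cKO 24 h. The 24 h libraries spread widely and overlapped between genotypes, while at 0 h every β8ITG-cKO library was below every WT library. The rise was 2.63-fold in WT (log2 change 1.28, SE 0.36, adjusted p = 0.0314) and 8.67-fold in β8ITG-cKO (log2 change 3.0, SE 0.35, adjusted p = 0.000427), and the 0 h difference was -1.05 (SE 0.24, adjusted p = 0.0445). The interaction of 1.72 was not called (adjusted p = 0.0817), but was without WT 24 h replicate 3 or β8ITG-cKO 24 h replicate 2 (adjusted p = 0.0227 and 0.0479). The WT rise was lost without WT 0 h replicate 1 or 3 or WT 24 h replicate 2 (adjusted p up to 0.0959), and the 0 h difference without WT 0 h replicate 1 or 2 or β8ITG-cKO 0 h replicate 2 or 3 (adjusted p up to 0.137). Sod1, the cytosolic enzyme, was at 71.0 to 134 FPKM, mitochondrial Sod2 at 9.12 to 21.8 FPKM and Cat, catalase, at 7.48 to 10.8 FPKM. For Cat the 95% interval of the change was -0.41 to 0.31 in WT and -0.26 to 0.40 in β8ITG-cKO.

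The metallothionein genes Mt1 and Mt2, small cysteine-rich proteins that bind zinc and copper and scavenge oxidants, and Fth1, which stores iron in ferritin, rose in both genotypes. Mt2 spans 94172664 to 94173568 on chromosome 8. Its level was 48.8, 24.8 and 38.8 FPKM in WT 0 h and 86.0, 118 and 179 FPKM in WT 24 h. In β8ITG-cKO it was at 0.95, 2.26 and 2.3 FPKM at 0 h and 71.5, 53.8 and 47.0 FPKM at 24 h. The 4 conditions formed an order with no overlap between β8ITG-cKO 0 h, WT 0 h and WT 24 h, and the β8ITG-cKO 24 h libraries overlapped WT 0 h alone. At 0 h Mt2 was 20.4-fold lower in β8ITG-cKO (log2 difference -3.75, SE 0.28, adjusted p = 0.000905). It rose 3.41-fold in WT (log2 change 1.73, SE 0.32, adjusted p = 0.00687) and 31.3-fold in β8ITG-cKO (log2 change 4.38, SE 0.24, adjusted p = 1.5e-05), and the interaction was 2.66 (SE 0.44, adjusted p = 0.00724). These 4 calls held in every fit that left out 1 library (adjusted p at most 0.0259). At 24 h Mt2 was 2.22-fold lower in β8ITG-cKO (log2 difference -1.10, SE 0.28, adjusted p = 0.0673), and was called without WT 24 h replicate 1 (adjusted p = 0.0321). Marker sums of red blood cells and corneal stroma were also lowest in the β8ITG-cKO 0 h libraries, and those of pigment cells were lower there than in WT 0 h. The corneal stroma difference between genotypes at 0 h lay in Dcn, while Col1a1 overlapped and Kera and Lum were below 1 FPKM in every library. The part of these cells in the Mt2 values was not tested.

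Mt1, its neighbour at 94179082 to 94180327, did not share the low β8ITG-cKO values at 0 h. It was at 76.0, 78.5 and 56.5 FPKM in WT 0 h, 145, 157 and 427 FPKM in WT 24 h, 19.1, 77.7 and 63.7 FPKM in β8ITG-cKO 0 h and 148, 144 and 124 FPKM in β8ITG-cKO 24 h. β8ITG-cKO 0 h replicate 1 was low, and WT 24 h replicate 3 was far above the rest. The latter library had the highest sum of corneal epithelium markers, mostly Krt15, with Krt12 of that list at 0. The log2 change was 1.60 in WT (SE 0.40, adjusted p = 0.0203) and 1.57 in β8ITG-cKO (SE 0.45, adjusted p = 0.0236), and the interaction was -0.03 (95% interval -1.52 to 1.46). After rescaling both fell short of the threshold (adjusted p = 0.0502 and 0.0664), and so they did without WT 0 h replicate 1 or 3 (adjusted p up to 0.0666) and without β8ITG-cKO 24 h replicate 1 or 2 (adjusted p up to 0.065). The 0 h difference was -0.59 (adjusted p = 0.463, 95% interval -1.65 to 0.47). Mt1 and Mt2 are close paralogs, and how reads were shared between them is not known here.

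Fth1 was the most abundant member over the 12 libraries, with a mean of 529 FPKM. It was at 380, 433 and 313 FPKM in WT 0 h, 783, 851 and 875 FPKM in WT 24 h, 400, 292 and 339 FPKM in β8ITG-cKO 0 h and 552, 470.0 and 656 FPKM in β8ITG-cKO 24 h. The WT 24 h libraries were above all others. The rise was 2.23-fold in WT (log2 change 1.16, SE 0.20, adjusted p = 0.00487) and 1.63-fold in β8ITG-cKO (log2 change 0.70, SE 0.17, adjusted p = 0.012, or 0.0694 after rescaling), and the interaction of -0.46 was not called (adjusted p = 0.293). Fth1 has many processed pseudogenes, which makes its level uncertain.

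The aldehyde dehydrogenases, which oxidize reactive aldehydes and are abundant in cornea and lens, were lower at 24 h in β8ITG-cKO. Aldh3a1 spans 61207537 to 61218421 on chromosome 11. Its level was 264, 207 and 248 FPKM in WT 0 h, 279, 151 and 392 FPKM in WT 24 h, 911, 535 and 756 FPKM in β8ITG-cKO 0 h and 138, 145 and 189 FPKM in β8ITG-cKO 24 h. The β8ITG-cKO 0 h libraries were the highest of the 12, and WT 24 h replicate 3 was the highest of the other 9. At 0 h Aldh3a1 was 3.06-fold higher in β8ITG-cKO (log2 difference 1.58, SE 0.21, adjusted p = 0.00801). It fell 4.67-fold in β8ITG-cKO (log2 change -2.20, SE 0.21, adjusted p = 0.000177). In WT its change was 0.10 (adjusted p = 0.85), or -0.17 after rescaling, and the interaction was -2.29 (SE 0.43, adjusted p = 0.00985). The interaction was called in all 12 fits that left out 1 library (adjusted p at most 0.0297), and the 0 h difference in 5 of 6, with 0.051 without β8ITG-cKO 0 h replicate 3. Aldh3a1 is also a major protein of the corneal epithelium, whose markers summed to 3.87 to 9.61 FPKM in β8ITG-cKO 0 h and 4.89 to 7.17 FPKM in WT 0 h, with overlap. At 24 h they summed to 12.2, 4.8 and 56.2 FPKM in WT replicates 1, 2 and 3, the order of Aldh3a1 in these libraries too, and to 2.59 to 5.19 FPKM in β8ITG-cKO. Of the single markers Krt5 and Krt14 had that order in WT 24 h. Krt12, at 4.62, 0.13 and 0 FPKM in WT replicates 1, 2 and 3, and also Krt15 and Trp63, did not. At 0 h the lens epithelium markers Foxe3 and Cdh1 were also higher in β8ITG-cKO (log2 differences 0.89 and 0.68, adjusted p = 0.0278 and 0.0116). The part of these cells in the Aldh3a1 values was not tested.

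Aldh1a1, which also makes retinoic acid, was at 331, 357 and 298 FPKM in WT 0 h and 146, 117 and 105 FPKM in WT 24 h, and at 449, 511 and 507 FPKM in β8ITG-cKO 0 h and 79.5, 115 and 147 FPKM in β8ITG-cKO 24 h. The 24 h libraries were the low ones in both genotypes and overlapped between them. The fall was 2.68-fold in WT (log2 change -1.42, SE 0.18, adjusted p = 0.00163) and 4.29-fold in β8ITG-cKO (log2 change -2.13, SE 0.21, adjusted p = 0.000188). At 0 h it was 1.49-fold higher in β8ITG-cKO (log2 difference 0.57, adjusted p = 0.0382), a call lost in 5 of 6 fits without 1 library (adjusted p up to 0.172), all but that without WT 0 h replicate 2.

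Promoter sequence was set beside these values because members of the group are known NRF2 or metal-response targets. RefSeq promoters (250 bases before to 50 bases after the start, GRCm38.p6) matched 32 of the 40 genes. Those of Aldh3a1, Gclc, Gsr, Gsta4, Hmox1, Msra, Prdx6 and Sod3 were not matched. The core of the antioxidant response element, TGACNNNGC on either strand, was found in 8 of 32 (G6pdx, Gclm, Mt2, Nfe2l2, Prdx1, Sod1, Srxn1 and Txnrd1), and in 13.99% of all 27025 genes with a promoter in the table. The AP-1 word TGACTCA, which can overlap it, was in 6 of 32 and in 5.95% of all genes. Windows of about 30 bases are shown for the 7 of these genes that were called in a comparison, with the match in capitals, as each gene is read 5′ to 3′. A match on the opposite strand appears as the reverse complement of those letters. A match is a description of letters and not a binding site, and no match says nothing about the factor.
Nfe2l2, chr2:75704885-75704913, minus strand: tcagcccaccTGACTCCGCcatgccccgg
Srxn1, chr2:152105541-152105570, plus strand: ggcagtgggcaGCTAGGTCAgagtgagaca
Txnrd1, chr10:82859103-82859132, plus strand: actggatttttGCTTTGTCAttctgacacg
Gclm, chr3:122245412-122245441, plus strand: cgctcccgggcGCACCGTCAactctcacga
G6pdx, chrX:74428919-74428948, minus strand: gaggcgggtcaGCTCAGTCAaagcacacgc
Prdx1, chr4:116685455-116685484, plus strand: ccagggaaagcGCTGAGTCAtcccccgtag
Mt2, chr8:94172528-94172557, plus strand: gaaagggggtgTGACTCAGCgcggggggtg
In Mt2 and Prdx1 the match overlaps an AP-1 word. Of the 8 genes with the match, 7 were called higher by 24 h in WT, beside 19 of all 40 members and 20.9% of all genes. Of these 7, Nfe2l2, Srxn1, Txnrd1, G6pdx and Mt2 were called higher in β8ITG-cKO too, and Gclm and Prdx1 were not. In β8ITG-cKO 15 of the 40 members and 35.4% of all genes were called higher. The counts of 19 and 15 members each include Gsr, Gsta4, Hmox1 and Sod3, whose promoters were not matched and so not searched. After rescaling, Gclm and Txnrd1 lost the call in WT and G6pdx in β8ITG-cKO. Sod1, the other gene with the match, was then called lower in both. Whether the match goes with the rise was not tested.

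The promoters of Mt1 and Mt2 are shown because these neighbours differed at 0 h in β8ITG-cKO. Each covers 250 bases before to 30 bases after the start, with the core of the metal response element (TGCACNC or TGCGCNC, either strand) in capitals. Mt1 holds 3 matches and Mt2 holds 4, and 3 or more were found in 1.969% of all 32851 promoters searched. At least 1 was found in 9 of the 32 genes and in 28.23% of all genes.
Mt1, chr8:94178839-94179118, plus strand: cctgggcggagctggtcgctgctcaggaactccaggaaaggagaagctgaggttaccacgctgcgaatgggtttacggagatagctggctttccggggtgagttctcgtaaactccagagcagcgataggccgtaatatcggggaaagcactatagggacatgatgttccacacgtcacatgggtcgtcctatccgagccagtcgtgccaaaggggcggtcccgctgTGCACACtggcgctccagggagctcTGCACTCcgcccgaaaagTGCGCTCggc
Mt2, chr8:94172368-94172647, plus strand: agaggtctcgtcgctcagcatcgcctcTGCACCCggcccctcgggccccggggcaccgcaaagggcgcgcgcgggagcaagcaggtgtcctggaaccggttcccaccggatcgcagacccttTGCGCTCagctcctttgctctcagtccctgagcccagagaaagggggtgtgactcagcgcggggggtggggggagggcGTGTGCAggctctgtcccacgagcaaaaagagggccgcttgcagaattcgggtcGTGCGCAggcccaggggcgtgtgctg

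Other genes of the same pathways, 92 in 6 lists, were followed beside the 40. In WT by 24 h, 25 of 85 tested were called higher and 12 lower, and in β8ITG-cKO 30 of 84 higher and 19 lower. Beside them, 20.9% and 8.81% of all genes were called higher and lower in WT and 35.4% and 10.7% in β8ITG-cKO, so the share called higher in β8ITG-cKO was at the background. The median change was 0.15 in each genotype, against 0.16 and 0.23 for all genes. Among 27 other glutathione enzymes tested in WT, 4 were called higher and 8 lower. Gsta1 and Gsta2, alpha-class transferases, were at 0.13, 0.25 and 0.02 FPKM and at 0, 0 and 0.02 FPKM in WT 0 h, and reached 20.5, 45.4 and 24.9 FPKM and 17.4, 39.6 and 21.8 FPKM in WT 24 h. In β8ITG-cKO 24 h they were at 11.4, 12.7 and 1.28 FPKM and at 9.46, 9.44 and 1.25 FPKM, with replicate 3 low for both. They are near-identical paralogs, so reads can be shared, and their log2 changes of 4.71 and 4.67 in WT (adjusted p = 8.95e-05 each) depend on the pseudocount. Gstm2, beside Gstm1 in the mu-class cluster, fell 3.44-fold in WT (82.0 ± 5.63 to 23.8 ± 6.45 FPKM) and 4.19-fold in β8ITG-cKO (66.1 ± 9.06 to 15.8 ± 2.38 FPKM), and Gstm6 fell in WT (8.76 ± 2.12 to 3.01 ± 0.845 FPKM) and 5.03-fold in β8ITG-cKO (10.4 ± 1.22 to 2.08 ± 0.788 FPKM; SD, n = 3 each). Esd, which hydrolyses S-formylglutathione, rose 3.36-fold in WT (log2 change 1.69, SE 0.18, adjusted p = 0.000855) and also in β8ITG-cKO (log2 change 1.15, SE 0.13, adjusted p = 0.000337).

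The counts of the smaller lists stand beside the same shares of all genes. Of 16 other thioredoxin-system and methionine sulfoxide genes, 5 were called higher and 2 lower in WT and 4 higher and 4 lower in β8ITG-cKO. Of 14 other NRF2 target genes tested, 6 and 2 were called in WT and 7 and 3 in β8ITG-cKO. Tkt, transketolase of the pentose phosphate pathway, fell in both genotypes. It had means of 330.3 ± 33.2 FPKM at 0 h and 189 ± 27.4 FPKM at 24 h in WT, with a log2 change of -0.81 (adjusted p = 0.0134). In β8ITG-cKO it had means of 519 ± 34.5 FPKM at 0 h and 158 ± 25.1 FPKM at 24 h (SD, n = 3) and a log2 change of -1.72 (adjusted p = 8.41e-05). Of 9 metal handling genes, 4 rose and none fell in each genotype. Of 8 oxidant-producing enzymes tested, 5 rose in WT, and 4 rose and 2 fell in β8ITG-cKO. The list holds NADPH oxidase genes of white blood cells. Neutrophil markers rose by 24 h as well, 5 of 5 tested in WT and 4 of 4 in β8ITG-cKO, and their part in these changes was not tested.

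Of 11 regulators of NRF2, 3 were lower in β8ITG-cKO at 0 h and 8 were not called, where 2.75% of all genes were called lower. The median difference of the list was -0.20, beside 0.02 for all genes. Maff, a small MAF protein that pairs with NRF2, was at 17.6, 9.26 and 12.5 FPKM in WT 0 h and 1.82, 1.97 and 1.93 FPKM in β8ITG-cKO 0 h, and at 7.17 to 11.6 FPKM in all 24 h libraries. It was 6.89-fold lower at 0 h (log2 difference -2.24, SE 0.20, adjusted p = 0.00234), with an interaction of 2.13 (adjusted p = 0.00405). Sqstm1, the autophagy receptor p62 that binds KEAP1, was at 110, 91.9 and 106 FPKM in WT 0 h and 48.6, 46.0 and 49.0 FPKM in β8ITG-cKO 0 h (log2 difference -1.08, SE 0.11, adjusted p = 0.00295). Bach1, a repressor of NRF2 target genes, differed by -0.97 (adjusted p = 0.0203, up to 0.0854 without 1 library). Outside this list, Ftl1 and Slc30a1 were among the genes lower and Tkt and Txndc12 among those higher in β8ITG-cKO at 0 h, with 3 higher and 5 lower of 77 tested in all. At 24 h Mafk was the only 1 of 84 called (log2 difference -0.69, adjusted p = 0.0457, up to 0.167 without 1 library). The interaction called Akr1b8, Bach1, Cul3 and Maff with a higher log2 change in β8ITG-cKO and Tkt, among others, with a lower one, of 86 tested. Akr1b8 rose in both genotypes, while Bach1, Cul3 and Maff rose in β8ITG-cKO and had uncalled changes of -0.37, -0.31 and -0.49 in WT (adjusted p = 0.223, 0.162 and 0.178). Among these, Bach1, Ftl1, Slc30a1, Txndc12, Mafk, Akr1b8 and Cul3 were named after their values were seen.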

How the data were processed

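Total RNA from pooled lens capsules was extracted with RNeasy columns and made into libraries with a SMARTer stranded pico-input kit. According to the submitters' processing notes and the study's methods, the authors trimmed the reads (FastQC, cutadapt 1.12), aligned them to mm10 (GRCm38.p5) with TopHat2 2.1.0 and computed FPKM per gene and library with Cuffdiff 2.2.1, and these FPKM were deposited in 4 tables, 1 per pair of conditions. Each library stands in 2 of the tables, and 0 values differed between them. The 8 columns of the authors' means were not used, nor were their group values, fold changes, test statistics, p-values and q-values. No column of library values was without a library.

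Values were analysed as log2(FPKM + 1) with limma-trend (limma 3.58.1, R 4.3.3) after genes averaging below 0.5 FPKM in the libraries of the fit were dropped. Each pair of conditions had a fit of its own (6 libraries), and the interaction of genotype and time used all 12. P-values were adjusted by Benjamini-Hochberg over all genes tested, called at 0.05, and the scripts were tested on simulated data. Members were matched by gene symbol, and 17 symbols repeat among the 45859 genes, none of them a member. Library values were printed for members called with the size criteria or by the interaction, for the 2 most abundant and for Nfe2l2 and Keap1. Of the other pathway genes, up to 4 per comparison with the largest changes were named, among called genes meeting the size criteria and reaching 10 FPKM in a condition. Some genes that these rules name are not reported here. The members and lists were chosen with earlier results of these data known.

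Alternatives were a pseudocount of 0.1, no filter, each library rescaled to the same median over genes of at least 2 FPKM, the size criteria, 1 fit over all 12 libraries, the replicate number as a block, and each library left out. Tables were handled in Python 3.11.15 with pandas 2.3.3 and numpy 2.4.6, and plots drawn with matplotlib 3.10.9. Gene positions are from GENCODE M21 (GRCm38).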

Additional observations from a re-analysis of the deposited data

Results flagged for a closer look

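For 5 genes the test of the difference between genotypes in the change from 0 h to 24 h passed (limma, interaction of genotype and time, 12 libraries). The difference was 2.66 on the log2 scale for Mt2 (adjusted p = 0.00724), which rose in both genotypes, and it was called in 12 of 12 fits that left out 1 library. For Aldh3a1 it was -2.29 (adjusted p = 0.00985, 12 of 12 such fits) and for Slc7a11 -1.54 (adjusted p = 0.0155, 12 of 12). For Prdx1 it was -0.79 (adjusted p = 0.019, 11 of 12). For Gpx8 it was -0.84 (adjusted p = 0.0366, 2 of 12), so that this call was lost in most of those fits.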

How the results depend on the processing

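Numbers of the 40 genes called depended on the filter, the fit and single libraries, and the cause was not tested. With no filter on low values, 15 genes were called in WT over time in place of 23 and 4 at 0 h between genotypes in place of 9. With the size criteria 15 were called in β8ITG-cKO over time in place of 25. At 24 h between genotypes, with 0 called, rescaling called 1 gene (Prdx1, lower) and 1 fit over all 12 libraries called 4. Leaving out 1 library gave 18 to 24 genes in WT, 19 to 25 in β8ITG-cKO, 0 to 1 at 24 h, 2 to 7 at 0 h and 3 to 7 for the interaction. Of the 84 gene values examined, those that turned sign were not called. The change of Aldh3a1 in WT was -0.17 after rescaling and -0.21 to 0.47 without 1 library. Without 1 library, that of Keap1 in β8ITG-cKO ran from -0.07 to 0.01, its difference at 24 h from -0.03 to 0.14, and the 0 h difference of Mt1 from -0.97 to 0.01. A pseudocount of 0.1 kept the direction and the call of all 84 gene values examined, and outside these it called Gpx4 in β8ITG-cKO and Gsr at 0 h. Without the filter 66 of 84 kept both and after rescaling 70 of 84. In the fits that left out 1 library, 487 of 576 did.

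The replicate numbers did not pair the libraries: over 18 same-number pairs the correlation of deviations from the condition means ran from -0.25 to 0.1, and 3 pairs correlated best with their own number. With the replicate number as a block, 4 genes were called at 0 h, 24 in WT, 23 in β8ITG-cKO, 0 at 24 h and 4 for the interaction. Read depth is unknown, and each condition had 3 libraries.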
